A study of Mus musculus with 6 samples.

Results

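The genes described here build and focus the poles of the meiotic spindle in the mouse oocyte, and their ribosome footprints were followed through maturation and through treatment with a ligand of RNA G-quadruplexes. They are Tacc3, Ckap5, Cltc, Numa1, Aspm, Pcnt, Cep192, Cdk5rap2, Tubg1 and Nedd1, chosen by name as genes of the acentriolar spindle pole and of the microtubule-organizing centre (MTOC), and all 10 were found among the 22416 genes of the table. The data came from Ribo-lite, a form of ribosome profiling for few cells, which sequences the mRNA fragments that ribosomes protect from nuclease. There were 6 libraries in 3 groups of 2. WT_FGO held fully grown oocytes at the germinal vesicle (GV) stage, WT_MII held control oocytes at metaphase II (MII), and Treat_MII held MII oocytes that the labels call only treated. The study's methods name the treatment as BYBX, which binds folded G-rich RNA (RNA G-quadruplex, rG4) and stabilizes it, and the carrier as DMSO. All groups were labelled WT in genotype, with ovary as the tissue and oocyte as the cell type. By the methods, oocytes came from 4-week-old females of C57BL/6 background primed with 5 IU PMSG, were collected 44 h later and were cultured in M16 medium. Each library pooled 500 oocytes. The study calls the Ribo-lite replicates biological, without saying whether the 2 libraries of a group came from separate animals or cultures, so p-values measure the spread between these libraries.

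Mouse oocytes lose their centrioles as they grow. Their meiotic spindle is therefore assembled from many acentriolar MTOCs, which gather around the chromatin and are sorted into poles. MTOC scaffolds such as pericentrin recruit gamma-tubulin, the nucleator of microtubules, while crosslinking and minus-end proteins such as NuMA and ASPM draw the microtubule ends into a pole. TACC3, ch-TOG (the product of Ckap5) and clathrin heavy chain (Cltc) form a complex that bridges neighbouring spindle microtubules. Fully grown oocytes make little new RNA, so new spindle proteins depend on the translation of stored mRNA.

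The members were searched for a G-rich motif, 4 runs of at least 3 G separated by loops of 1 to 7 bases. The search used the transcript strand of the longest coding transcript in GENCODE mouse release 21 (GRCm38). Only Cdk5rap2 held this motif, once in its 5′ UTR (bases 75 to 99) and once in its 3′ UTR (bases 1910 to 1933). The 9 other members held none in UTRs or coding sequence, and over the 14825 tested genes with annotation 19.8% held at least 1. With runs of at least 2 G, a looser form, every member held matches, such as 33 in the coding sequence of Pcnt and 18 in that of Numa1. The share of all genes with the looser form is not given here. Both stretches of Cdk5rap2 are shown because they are the only matches to the stricter form among the members. Capitals mark all runs of at least 3 G. The 3′ UTR stretch shows 3 unbroken runs and meets the definition because a G inside its longest run may serve as a loop.

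Cdk5rap2 5′ UTR: GGGttggaGGGGGcGGGacctGGGG
Cdk5rap2 3′ UTR: GGGGGGGGGGGGtgaGGGcGGGGG

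These letters are a match in sequence, not a folded structure that was measured, and their absence says only that these letters are missing from the annotated transcript. The last 150 bases of the 3′ UTR were also searched for the cytoplasmic polyadenylation element (CPE), written as TTTTAT or TTTTAAT, and for the polyadenylation hexamer, written as AATAAA or ATTAAA. Through the CPE, stored mRNAs of maturing oocytes can regain a poly(A) tail. This search was added with the values already known. Ckap5 (2 matches) and Pcnt (1 match) were the only members with a CPE, a share near the 24.2% of 12936 tested genes. The hexamer was found in 8 members, all except Tacc3 and Aspm, against 81.0% of the genes. The stretches of Ckap5 and Pcnt that hold both elements are shown with that of Cltc, which has the hexamer alone. Numa1, Cep192, Cdk5rap2, Nedd1 and Tubg1 had the hexamer alone too, and a link between these elements and the footprints was not tested. Capitals mark the elements.

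Ckap5: acTTTTATaAATAAAgtttgcattaactat
Pcnt: TTTTATtggcaaaacaAATAAAactatgtc
Cltc: atttaaAATAAAttactggactgtggaaat

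The Ckap5 and Cltc stretches are the last 30 bases of the annotated transcripts, and that of Pcnt runs from base 35 to base 6 before the end. Transcript ends in oocytes can differ from the annotated ones, and the matches are a description of sequence.

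Values were FPKM, footprint reads scaled by the length of the coding sequence and by library depth, so that levels can be compared between genes. Each value is relative to its own library, and no spike-in scaling is stated. Multiplied by the coding length, the FPKM gave whole reads for 98.4% of the genes with a known length (21593 of 21937), within 0.02 reads. The library constants were 94309 and 107251 reads in WT_FGO, 164972 and 230907 in WT_MII, and 331304 and 275604 in Treat_MII, so the treated libraries were the deepest. All 12 oocyte markers were read, with a summed level of 30442 to 47090 FPKM in WT_FGO, 21162 to 25962 in WT_MII and 31245 to 32393 in Treat_MII. In WT_FGO_2 the 15 granulosa or cumulus markers summed to 2189 FPKM, against 235 in WT_FGO_1 and 145 to 305 in the MII libraries, and of these markers Tnfaip6 was at 0 in all libraries. Theca markers (Cyp17a1 at 0) summed to at most 37.3 FPKM and blood markers (Hbb-bs and Lyz2 at 0) to at most 49.5 FPKM in any library.

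All 10 members passed the filter of a mean of at least 1 FPKM, which left 15127 genes for the test. Their depth differed widely. Ckap5 had 1798 reads over the 6 libraries and Cltc 1514, followed by Aspm with 619, Tacc3 with 576, Pcnt with 500, Numa1 with 478, Cep192 with 314 and Nedd1 with 163. Tubg1 had 47 reads and Cdk5rap2 24, so that for these 2 genes counting error was large. Single groups of other members also rested on few reads. These were Tacc3 in WT_MII (12 and 19 reads), and Cep192 (16 and 7) and Nedd1 (9 and 7) in WT_FGO. Together the members took 0.596% and 0.550% of the reads in WT_FGO, 0.419% and 0.432% in WT_MII, and 0.509% and 0.547% in Treat_MII. Reads may also be shared between near-identical genes. Of the 28-base words of the Tubg1 coding sequence, 35.0% also occurred in transcripts of other genes, mostly of its paralog Tubg2. Of those of Nedd1 28.3% did, mostly in Gm8675. The levels of Tubg1 and Nedd1 are therefore uncertain. In the other 8 members the share was at most 1.03%.

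**Figure D1:**
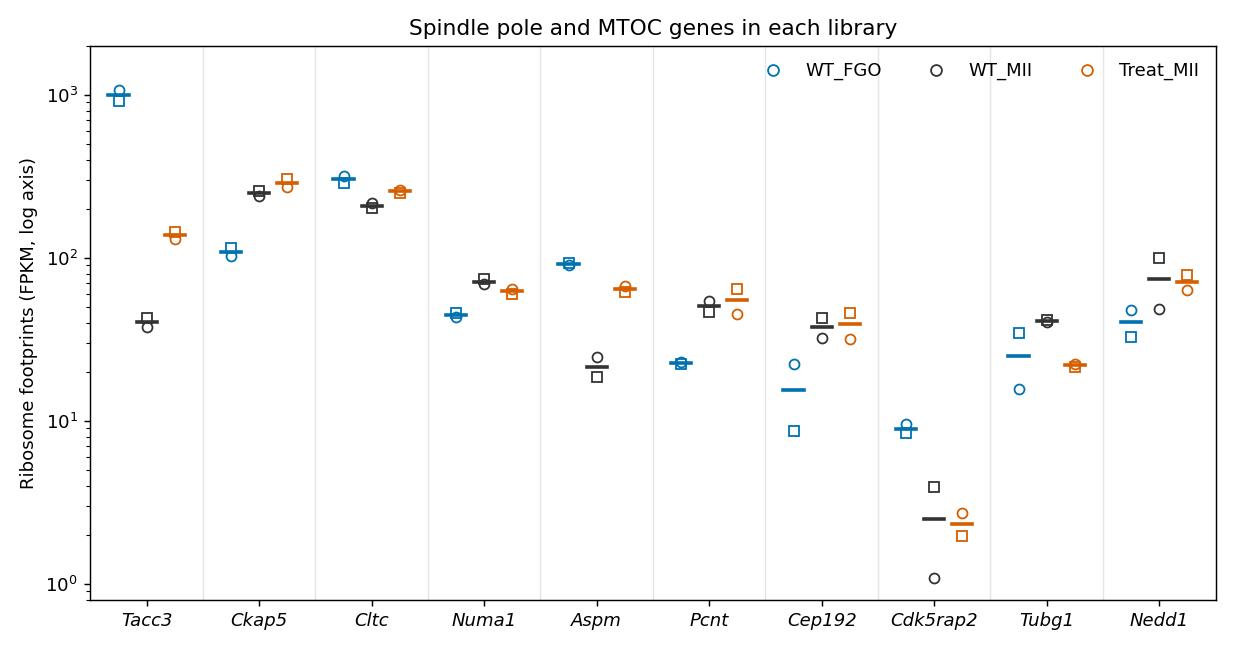
Ribosome footprints of the 10 genes in every library, in FPKM on a log axis, grouped by role from left to right. Circles are replicate 1, squares replicate 2, and bars the group mean. Tacc3 was the highest member in WT_FGO at 1073 and 914 FPKM and lay at 37.7 and 42.7 in WT_MII, whereas Ckap5 was the highest in both MII groups.

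The order of the members by level was not the same in the 3 groups. In WT_FGO, Tacc3 was highest at 994 ± 112 FPKM (SD, n = 2), followed by Cltc at 303 ± 19.2 (SD, n = 2), Ckap5 at 109 ± 8.55 (SD, n = 2) and Aspm at 91.6 ± 1.42 (SD, n = 2), and no library of one overlapped with those of the next. From Numa1 (44.6 ± 1.49 FPKM, SD, n = 2) down through Nedd1, Tubg1, Pcnt, Cep192 and Cdk5rap2 (8.98 ± 0.82 FPKM, SD, n = 2), each neighbour in the order overlapped with the next. In WT_MII the order began with Ckap5 at 249 ± 11.7 FPKM and Cltc at 210 ± 12.0 (both SD, n = 2), without overlap. Tacc3 there was at 40.2 ± 3.50 FPKM (SD, n = 2), and overlapped with Tubg1 above it and Cep192 below it, while Aspm at 21.5 ± 4.31 (SD, n = 2) was the last but for Cdk5rap2. In Treat_MII, Ckap5 at 288 ± 22.1 FPKM and Cltc at 257 ± 6.78 (both SD, n = 2) again led, and Tacc3 followed at 138 ± 9.48 (SD, n = 2), clear of both neighbours. Aspm stood at 64.5 ± 4.07 FPKM (SD, n = 2), and from Nedd1 through Aspm, Numa1 and Pcnt to Cep192 all neighbours overlapped.

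To see how footprints changed over meiotic maturation, WT_MII was compared with WT_FGO. limma called 2 of the 10 members lower in WT_MII, Tacc3 and Aspm, and 0 higher, at an adjusted p under 0.05. Over all 15127 genes tested, 3.09% were called lower and 3.67% higher, together 6.76%. Among the 2706 genes with at least 60 reads (well-read genes), which include both called members and 8 of the 10, the shares were 8.39% and 16.3%, together 24.7%, so 2 of 8 lay near the share of such genes called in either direction. At an unadjusted p under 0.05, Ckap5 was higher as well (1 of 10, against 9.65% of all genes and 31.0% of the well-read ones), and Tacc3 and Aspm were the lower members (2 of 10, against 13.1% and 21.7%). By the ratio of means of FPKM + 1, which carries no test, more than 2-fold changes were seen in 6 members: 3 were lower (Tacc3, Aspm and Cdk5rap2) and 3 higher (Ckap5, Cep192 and Pcnt), where the shares were 41.8% and 23.6% over all genes and 27.7% and 37.6% over the well-read ones. No member overlapped between these groups. The WT_MII libraries exceeded both WT_FGO libraries for Ckap5, Numa1, Pcnt, Cep192, Nedd1 and Tubg1 (6 of 10, against 15.3% of all genes tested) and were below them for Tacc3, Aspm, Cltc and Cdk5rap2 (4 of 10, against 25.8%). Among the well-read genes these shares were 41.2% and 34.4%, so that separated groups were common there. The median change of the members was 0.73 on the log2 scale, against -0.44 over all genes and 0.23 over the well-read genes. The oocyte markers moved with this comparison too, with 2 of 12 called higher, 7 lower and a median of -2.10, and their part in the members' values was not tested. Without WT_FGO_2, the library with the high granulosa markers, Tacc3 fell by 4.71 and Aspm by 2.04 on the log2 scale. In pools of oocytes, fewer footprints per mRNA and less mRNA per oocyte cannot be told apart from these values, nor can fewer oocytes of a kind and less RNA per oocyte.

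To see how footprints differed with the treatment, Treat_MII was compared with WT_MII. limma called 0 members, as it called 0.0% of all genes tested in either direction, with a smallest adjusted p of 0.248 over all genes. At an unadjusted p under 0.05, 576 genes were higher and 306 lower. Tacc3 and Aspm were among the higher, which made 2 of 10 members, against 3.81% of all genes and 4.95% of the well-read ones, and 0 members were among the lower, against 2.02% and 1.66%. The same 2 genes were the members over 2-fold higher in Treat_MII (19.9% of all genes, but 6.80% of the well-read ones), and 0 were over 2-fold lower (21.2% and 6.43%). The treated libraries both exceeded the controls for Tacc3, Aspm, Ckap5 and Cltc (4 of 10, against 16.2%, or 25.0% of the well-read genes) and were both below them for Numa1 and Tubg1 (2 of 10, against 15.6%, or 21.1%). The median change of the members was 0.08 on the log2 scale, against 0 over all genes. limma with precision weights from the recovered reads called 165 genes, Tacc3 and Aspm among them, and the same method over the well-read genes alone called 10, with Aspm and without Tacc3. The oocyte markers moved with this comparison, since 11 of 12 were above 0 with a median of 0.85 on the log2 scale and 0 called. Their part in the values of Tacc3 and Aspm was not tested. The paper reports higher transcript levels in treated than in control MII oocytes, and less first polar body emission at higher BYBX concentrations. Footprints per mRNA, mRNA per oocyte and the meiotic stage of the pooled oocytes cannot be told apart from these values.

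Treat_MII was also set against WT_FGO. It shares its libraries with both comparisons above, so its values are a description of where the treated oocytes stood. limma called Tacc3 lower and 0 members higher, where 1.0% of all genes were called lower and 2.86% higher (3.58% and 12.9% of the well-read ones). At an unadjusted p under 0.05, Ckap5 and Pcnt were higher (2 of 10, against 9.51% of all genes and 30.8% of the well-read ones) and Tacc3 lower (1 of 10, against 10.4% and 19.5%). The treated libraries exceeded both WT_FGO libraries for Ckap5, Numa1, Pcnt, Cep192 and Nedd1 (5 of 10, against 16.6%) and were below them for Tacc3, Aspm, Cltc and Cdk5rap2 (4 of 10, against 28.9%), and Tubg1 overlapped. Over the well-read genes these shares were 42.4% and 38.4%, near those of the members. More than 2-fold, without a test, 3 members were higher (Ckap5, Cep192 and Pcnt) and 2 lower (Tacc3 and Cdk5rap2). The shares were 21.2% and 45.5% of all genes, and 35.5% and 30.1% of the well-read ones.

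**Figure D2:**
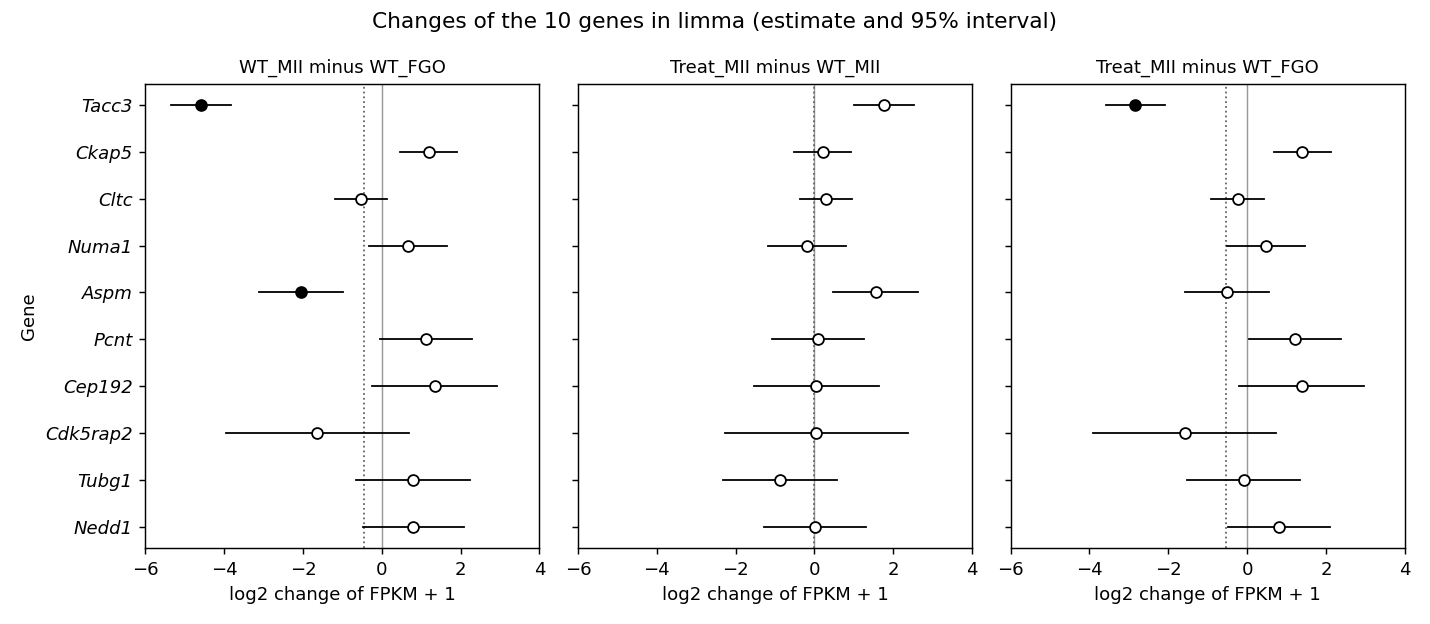
Change of each gene in the 3 comparisons, in log2 of FPKM + 1, as the limma estimate with its 95% interval. Filled points have an adjusted p under 0.05, and the dotted line is the median over all genes tested. Tacc3 and Aspm are filled and lowest in WT_MII minus WT_FGO and lie furthest to the right in Treat_MII minus WT_MII, where no point is filled.

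Tacc3 encodes a coiled-coil protein that Aurora A kinase brings to spindle microtubules (chromosome 5, 33658128 to 33678995 of GRCm38). It was read at 1073 and 914 FPKM in WT_FGO (195 and 189 reads), 37.7 and 42.7 FPKM in WT_MII (12 and 19 reads), and 132 and 145 FPKM in Treat_MII (84 and 77 reads). The groups did not overlap, and the treated libraries lay between the control MII and the fully grown oocytes. In WT_MII it fell by 4.59 ± 0.31 (SE) on the log2 scale (adjusted p = 0.00194 in limma), and each WT_MII library was 21.4 to 28.4 times below each WT_FGO library. Of the 2706 well-read genes, 27 had a lower change. The call was lost when only the compared groups were fitted (adjusted p = 0.116) and when either Treat_MII library was left out of the common spread (0.0931 and 0.0954), with the change at -4.59 in each. Its level in percentile terms went from 99.3 in both WT_FGO libraries to 84.1 and 85.9 in WT_MII.

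In Treat_MII, Tacc3 was 3.08 to 3.84 times above the controls in each pair of libraries, a difference of 1.76 ± 0.31 (SE) on the log2 scale with a 95% interval of 1.0 to 2.51. The adjusted p was 0.494 in limma and the unadjusted p 0.00124, so the difference did not pass the test across all genes. Of the well-read genes, 59 had a higher change. With precision weights the difference was 1.73 with an adjusted p of 0.0338, and over the well-read genes with such weights it was not called. Against WT_FGO the treated libraries were lower by 6.31 to 8.16 times (-2.83 ± 0.31 on the log2 scale, SE, adjusted p = 0.00848 in limma). That call was lost with only the compared groups (0.0520), without the trend (0.115) and without Treat_MII_1 (0.0518).

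Ckap5 encodes ch-TOG, a microtubule polymerase and partner of TACC3 (chromosome 2, 91526762 to 91620664). Its level was 103 and 115 FPKM in WT_FGO, 241 and 257 in WT_MII, and 272 and 304 in Treat_MII. Both MII groups lay above WT_FGO without overlap. The maturation difference was 1.19 ± 0.30 (SE) on the log2 scale (adjusted p = 0.0723 in limma), just outside the threshold. It was called in 8 of 18 alternatives, among them a mean of at least 5 FPKM (0.0486), centring of the libraries (0.0403), at least 60 reads (0.0178) and leaving out WT_FGO_1 (0.0424) or WT_FGO_2 (0.0363). The treated libraries were 1.06 to 1.26 times above the controls, a difference of 0.21 ± 0.30 (SE) with a 95% interval of -0.51 to 0.93 and an adjusted p of 0.992 in limma. Against WT_FGO the treated difference was 1.40 ± 0.30 (SE), adjusted p = 0.0650 in limma.

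Cltc, the heavy chain of clathrin, serves vesicle coats as well as the spindle (chromosome 11, 86694351 to 86757565). It was read at 317 and 289 FPKM in WT_FGO, 218 and 201 in WT_MII, and 261 and 252 in Treat_MII. The treated libraries again lay between the other groups without overlap, over a narrow range. The maturation difference was -0.53 ± 0.27 (SE) with an adjusted p of 0.342, and the treated difference 0.29 ± 0.27 (SE) with an adjusted p of 0.961, both in limma.

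The 3 partners of the complex thus differed in their course. In WT_FGO, Tacc3 stood 10.5 and 7.97 times above Ckap5 in FPKM. In WT_MII, Ckap5 stood 6.37 and 6.02 times above Tacc3, and in Treat_MII 2.07 and 2.09 times. Cltc stood 5.78 and 4.71 times above Tacc3 in WT_MII and 1.99 and 1.74 times in Treat_MII. The 2 libraries of each MII group were close to each other in these ratios, which were chosen with the levels known and carry no test. In WT_MII the ratios rest on 12 and 19 reads of Tacc3.

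**Figure D3:**
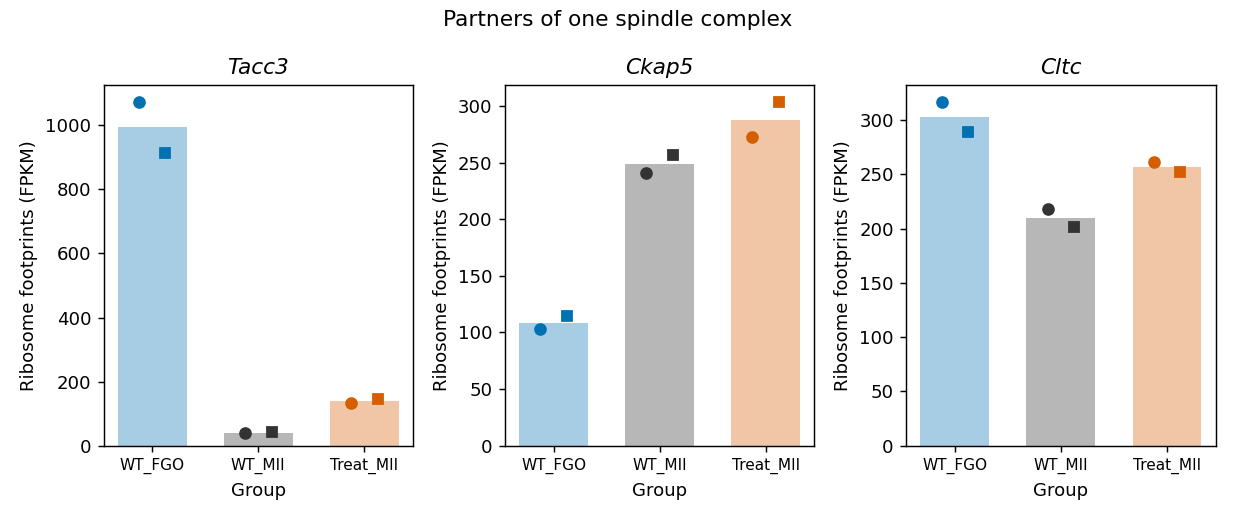
FPKM of Tacc3, Ckap5 and Cltc, each on its own linear axis from 0. Bars are group means and points the libraries (circle for replicate 1, square for replicate 2). Tacc3 falls from a mean of 994 FPKM in WT_FGO to 40.2 in WT_MII, with Treat_MII at 138, while Ckap5 lies at 109, 249 and 288.

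Aspm encodes a protein of microtubule minus ends at spindle poles, whose human counterpart is linked to primary microcephaly (chromosome 1, 139454772 to 139494091). It had 90.6 and 92.6 FPKM in WT_FGO, 24.6 and 18.5 in WT_MII, and 67.4 and 61.6 in Treat_MII, from 80, 93, 38, 40, 209 and 159 reads. As with Tacc3, the treated libraries stood between the control MII and the fully grown ones, and no groups overlapped. In WT_MII it fell by 2.05 ± 0.44 (SE) on the log2 scale, adjusted p = 0.0488 in limma, and each WT_MII library was 3.68 to 5.01 times below each WT_FGO library. This call was close to the threshold. Of 18 alternatives 10 kept it and 8 did not, among them centring (adjusted p = 0.127), quantile normalization (0.0772), the fit of the compared groups alone (0.156) and leaving out Treat_MII_1 (0.118) or Treat_MII_2 (0.116).

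Between the MII groups, Aspm was 2.505 to 3.64 times higher in the treated libraries in each pair, a difference of 1.55 ± 0.44 (SE) on the log2 scale with a 95% interval of 0.48 to 2.62. The adjusted p was 0.740 and the unadjusted p 0.0119 in limma, so it did not pass the test. Of the well-read genes, 94 had a higher change. With precision weights it was 1.61 with an adjusted p of 0.000909, and 1.61 with 0.0307 over the well-read genes. Against WT_FGO the treated libraries were 1.34 to 1.50 times lower, a difference of -0.50 ± 0.44 (SE) with an adjusted p of 0.550 in limma.

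Numa1 encodes NuMA, which with dynein gathers minus ends into the pole (chromosome 7, 101934111 to 102014964). Its level was 43.6 and 45.7 FPKM in WT_FGO, 69.0 and 74.0 in WT_MII, and 64.9 and 60.2 in Treat_MII. The MII groups were both above WT_FGO, and the treated libraries were just under the controls. The maturation difference was 0.67 ± 0.41 (SE) with an adjusted p of 0.440, and the treated difference -0.19 ± 0.41 (SE) with a 95% interval of -1.18 to 0.80 and an adjusted p of 1, both in limma.

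Pcnt encodes pericentrin, a scaffold of oocyte MTOCs (chromosome 10, 76351263 to 76442786). It was read at 23.0 and 22.4 FPKM in WT_FGO, 54.7 and 46.5 in WT_MII, and 45.5 and 64.3 in Treat_MII. Both MII groups lay above WT_FGO, and they overlapped with each other. Each WT_MII library was 2.02 to 2.45 times above each WT_FGO library, a difference of 1.12 ± 0.48 (SE) with an adjusted p of 0.237 in limma, and the treated difference was 0.10 ± 0.48 (SE) with an interval of -1.07 to 1.26.

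Cep192, a scaffold that brings Aurora A and Polo-like kinase to centrosomes and MTOCs, had 22.5 and 8.65 FPKM in WT_FGO, 32.1 and 43.1 in WT_MII, and 32.0 and 46.2 in Treat_MII. The WT_FGO libraries held 16 and 7 reads. The maturation difference was 1.34 ± 0.65 (SE) with an adjusted p of 0.303 in limma, and the MII groups overlapped, with a treated difference of 0.05 ± 0.65 (SE). Over the well-read genes with precision weights, the maturation rise was called for Cep192 (adjusted p = 0.0345) and Pcnt (0.0239) by limma. That setting called 1341 of the 2706 well-read genes in either direction, so such calls were common there.

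Cdk5rap2, the member with both G-rich stretches shown above, ties gamma-tubulin complexes to the scaffold and activates them (chromosome 4, 70216856 to 70410443). It was the lowest member in every group, with 9.56 and 8.41 FPKM in WT_FGO, 1.09 and 3.90 in WT_MII, and 2.72 and 1.96 in Treat_MII. These values rest on 5, 5, 1, 5, 5 and 3 reads. The exact Poisson interval of WT_MII_1 (95%, counting error only) ran from 0.03 to 6.09 FPKM and that of WT_FGO_1 from 3.10 to 22.3 FPKM, so that they overlapped. The maturation difference was -1.64 ± 0.95 (SE), adjusted p = 0.409 in limma. The treated difference was 0.05 ± 0.95 (SE) with an interval of -2.27 to 2.37, which leaves a change of several-fold in either direction undetectable at this depth.

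Tubg1 encodes gamma-tubulin itself (chromosome 11, 101119938 to 101126419). Its level was 15.7 and 34.5 FPKM in WT_FGO (2 and 5 reads), 40.3 and 41.6 in WT_MII (9 and 13 reads), and 22.3 and 21.5 in Treat_MII (10 and 8 reads). The treated libraries lay below both controls, and the WT_FGO libraries were on either side of the treated ones. The treated difference was -0.88 ± 0.59 (SE) on the log2 scale with an interval of -2.32 to 0.57 and an adjusted p of 0.931 in limma, and the maturation difference 0.79 ± 0.59 (SE) with an adjusted p of 0.490. The counting interval of WT_FGO_1 reached from 1.90 to 56.6 FPKM.

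Nedd1, which links the gamma-tubulin ring complex to the spindle, had 48.0 and 32.8 FPKM in WT_FGO, 48.8 and 100.2 in WT_MII, and 63.8 and 78.5 in Treat_MII (chromosome 10, 92684746 to 92722420). The WT_MII libraries lay on either side of the treated ones, and WT_MII_1 was hardly above WT_FGO_1. The maturation difference was 0.80 ± 0.53 (SE), adjusted p = 0.483, and the treated difference 0.02 ± 0.53 (SE) with an interval of -1.28 to 1.31, both in limma.

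Genes with a course like that of Aspm over the 6 libraries were listed by the Pearson correlation of log2(FPKM + 1), among 6367 genes that averaged 10 FPKM or more. The 5 nearest were Cacnb1 (r = 0.999), Sem1 (0.996), Ssb (0.995), Npm2 (0.991) and Tpgs2 (0.991). Npm2, an oocyte chaperone of nuclear proteins and one of the oocyte markers, was read at 2390 and 2492 FPKM in WT_FGO, 293 and 188 in WT_MII, and 1035 and 1309 in Treat_MII. Cltc and Tacc3 had r = 0.958 and 0.898 with Aspm, at ranks 73 and 279 among these genes. Numa1, Tubg1, Pcnt, Cep192, Nedd1 and Ckap5 had negative r with Aspm, from -0.850 to -0.581. Cdk5rap2 averaged under 10 FPKM and was not ranked. For Tacc3, the member with the highest mean, the nearest were Mtx2, Fbxw21, Gyg, Oosp2 and Fbxw24 (r from 0.997 to 0.998). The points share libraries and fall into 3 groups, so these values only describe likeness.

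The other genes of spindle and centriole assembly were taken from 5 lists of 88 genes, of which 84 were tested. In WT_MII, limma called 9 of them higher and 6 lower than in WT_FGO, with a median change of -0.43 on the log2 scale, against -0.44 over all genes. Those calls made 9 and 6 of 84, where 3.67% of all genes were called higher and 3.09% lower. For the 38 list genes with at least 60 reads it called 7 higher and 5 lower, where the shares were 16.3% and 8.39%. Their median was -0.58, lower than the 0.23 over all well-read genes. In Treat_MII against WT_MII it called 0, with a median of 0.11. At an unadjusted p under 0.05 in limma, 4 of 84 were higher and 1 lower, against 3.81% and 2.02% of all genes. Against WT_FGO, Treat_MII had 8 of 84 called higher and 4 lower, against 2.86% and 1.0% of all genes. Of the 38 list genes with at least 60 reads, 7 were called higher there and 4 lower, against 12.9% and 3.58% of the well-read genes. Leaving out either Treat_MII library brought the maturation count to 0, and leaving out WT_MII_1 or WT_MII_2 brought it to 9 or 7.

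Among 38 spindle assembly factors and pole partners, 6 were called higher and 1 lower in WT_MII, against 3.67% and 3.09% of all genes. Of the 17 well-read ones 4 were called higher and 1 lower, against 16.3% and 8.39% of the well-read genes. Tpx2, an activator of Aurora A, was read at 23.7 and 54.2 FPKM in WT_FGO, 336 and 521 in WT_MII and 528 and 532 in Treat_MII, a rise of 3.51 ± 0.47 (SE, adjusted p = 0.0139 in limma). Prc1, a crosslinker of the central spindle, had 50.9 and 134 FPKM in WT_FGO, 1002 and 1485 in WT_MII and 1507 and 1387 in Treat_MII (3.87 ± 0.48, SE, adjusted p = 0.0105 in limma). Cit, citron kinase of the cleavage furrow, went from 15.4 and 13.5 to 162 and 153 FPKM, with 149 and 161 in Treat_MII (3.36 ± 0.39, SE, adjusted p = 0.00792 in limma). The treated differences of these 3 genes were 0.34 ± 0.47, 0.24 ± 0.48 and -0.03 ± 0.39 (SE) on the log2 scale, with adjusted p-values of 0.991 or above in limma. Cep55, an abscission factor, had no read in WT_FGO and was at least 10.6-fold higher in WT_MII, against a floor of 3 reads per library, and Nde1, a dynein regulator, at least 1.39-fold. Katna1, a subunit of the microtubule-severing enzyme katanin that shares 16.8% of its 28-base words with other genes, also had none and was called, with no fold given because its WT_MII level lay under the floor of WT_FGO. Nusap1, which bundles microtubules near chromatin, was the lower one, with 215 and 335 FPKM in WT_FGO, 28.4 and 54.1 in WT_MII and 87.2 and 110 in Treat_MII (-2.74 ± 0.48, SE, adjusted p = 0.0286 in limma). Mapre2, a plus-end binding protein and next to Prc1 and Tpx2 in level, had 178 to 202 FPKM in WT_FGO and 149 to 287 in WT_MII (adjusted p = 0.912 in limma).

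Augmin, the complex that starts new microtubules from the sides of existing ones, had 8 genes tested. In WT_MII 0 were called higher and 2 lower, against 3.67% and 3.09% of all genes. Of the 4 with at least 60 reads, 0 were called higher and 1 lower, against 16.3% and 8.39% of the well-read genes. The median change was -2.61, but -1.06 over the 4 genes with at least 60 reads (Haus3, Haus4, Haus5 and Haus8), since the others had few reads and were at or near 0 in WT_MII. Haus8 had 853 and 800 FPKM in WT_FGO, 320 and 213 in WT_MII and 240 and 276 in Treat_MII (-1.66 ± 0.30, SE, adjusted p = 0.0322 in limma). Haus1, with 5 and 2 reads in WT_FGO and none in WT_MII, was at least 2.30-fold lower against the same floor. Haus3 was read at 174 and 120 FPKM in WT_FGO, 60.3 and 32.9 in WT_MII and 145 and 157 in Treat_MII, with adjusted p-values of 0.0895 and 0.713 for maturation and treatment in limma, and Haus4 had 58.4 and 162 FPKM in WT_FGO against 77.9 and 63.6 in WT_MII. Of the gamma-tubulin ring complex, 9 genes were tested and 0 called. At an unadjusted p under 0.05 in limma, 1 was higher and 1 lower, against 9.65% and 13.1% of all genes. Tubg2, the paralog that shares 33.0% of its words with Tubg1, was the highest with 133 and 241 FPKM in WT_FGO, 116 and 70.4 in WT_MII and 138 and 118 in Treat_MII. Nme7 and Tubgcp5, next in level, had adjusted p-values of 0.161 and 0.490 for maturation in limma.

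Centriole genes were still read in these oocytes without centrioles. Of 15 tested, 2 were called higher and 1 lower in WT_MII, against 3.67% and 3.09% of all genes. Of the 6 with at least 60 reads, 2 were called higher and 1 lower, against 16.3% and 8.39% of the well-read genes. Cenpj had 7.89 and 32.4 FPKM in WT_FGO, 168 and 194 in WT_MII and 229 and 237 in Treat_MII (adjusted p = 0.0377 in limma), and Cetn3, a centrin, had 75.8 and 53.4, then 217 and 310, then 350 and 317 FPKM (adjusted p = 0.0320). Cetn2, another centrin, had 637 and 307 FPKM in WT_FGO and 0 and 16.8 in WT_MII, at least 15.6-fold lower against the floor. Of 14 tubulins tested, 1 was called higher and 2 lower, against 3.67% and 3.09% of all genes. The median was -1.89, and -1.96 over the 8 with at least 60 reads. Of these 8, 1 was called higher and 2 lower, against 16.3% and 8.39% of the well-read genes. Several tubulins share most of their 28-base words with other genes, among them Tuba1b (97.6%), Tuba1c (95.2%), Tubb4b (80.2%) and Tubb2b (77.3%). Tuba1c, Tubb4b and Tubb2a (69.9%) are among the 8, so these medians and the call of Tubb2a are uncertain. Tubb3 had 118 and 124 FPKM in WT_FGO, 682 and 1097 in WT_MII and 1037 and 941 in Treat_MII (2.83 ± 0.31, SE, adjusted p = 0.00676 in limma). Tubb2a had 667 and 545, then 99.9 and 64.9, then 127 and 136 FPKM (-2.89 ± 0.35, SE, adjusted p = 0.00975 in limma), but 69.9% of its 28-base words also occurred in other genes, mostly Tubb2b. Tubb5 had 183 and 252 FPKM in WT_FGO, 59.2 and 52.0 in WT_MII and 102 and 101 in Treat_MII (adjusted p = 0.0373 in limma).

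**Figure D4:**
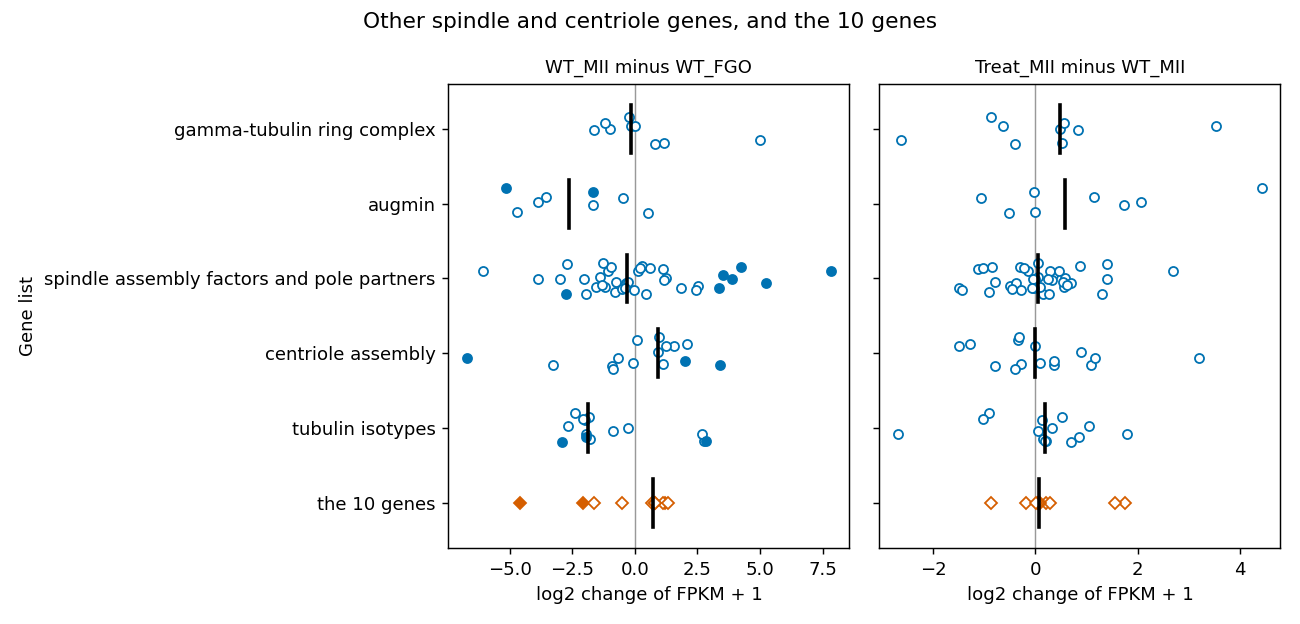
Change in log2 of FPKM + 1 for each tested gene of the 5 lists (circles) and for the 10 members (diamonds), for WT_MII minus WT_FGO and Treat_MII minus WT_MII. Filled points have an adjusted p under 0.05 in limma, black lines are medians, and vertical scatter has no meaning. The maturation median is -2.61 for augmin, which becomes -1.06 over its genes with at least 60 reads. It is -1.89 for the tubulins and 0.73 for the members, and no point is filled for the treatment. Haus5 of augmin and several tubulins share most of their 28-base words with other genes.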

How the data were processed

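The deposited values were FPKM per gene and library, which the authors made on the mouse mm10 genome. Their notes name cutadapt 1.14, Bowtie2 2.2.2 and STAR 2.5.3a, without roles. How reads were counted, on which annotation, and how molecular identifiers were treated is not given in the sources used here. After 26 entries with a repeated name were left out, 22416 genes remained. Reads were recovered from FPKM and the union coding length in GENCODE release 21 for mouse (GRCm38, the assembly of mm10). Since PCR copies are not independent molecules, exact Poisson intervals and the floor of 3 reads cover counting error only.

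Genes averaging 1 FPKM or more were fitted as log2(FPKM + 1) in limma 3.58.1 under R 4.3.3 (lmFit, then eBayes with a trend, checked on simulated data). The 6 libraries were fitted together with the group as the only term, because 2 libraries per group say little about spread alone. P-values were adjusted over all genes tested by the Benjamini-Hochberg method. Such changes understate those of low genes. An exact permutation test of 2 libraries against 2 cannot give a two-sided p below 0.333 and was not used.

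The members, the lists and the markers were chosen with earlier results of these data known. The genes named were all members, from each list those called under 0.05 (up to 8) and the 3 with the highest mean, and the 5 most like Aspm and the highest member. The 18 alternatives changed the pseudocount, the filter, the scaling, the block, the groups fitted, the trend or the weights, or left out a library. A minimum of 60 reads, with and without precision weights, was added after the data were seen.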

Additional observations from a re-analysis of the deposited data

How the results depend on the processing

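The member calls rest on few libraries and a shared spread. In maturation 2 members were called, and the count was 1 after rescaling to a common total, 1 with the replicate block, 1 without the trend, 0 with only the compared groups, 5 with precision weights over genes with at least 60 reads, and 0 to 3 on leaving out each library (0 without either Treat_MII library). The replicate numbers share only a number: deviations of same-numbered libraries correlated at 0.0342, 0.0176 and 0.0189, so the block says nothing of a weaker effect (adjusted p of Aspm 0.0910 with it). In treatment 0 members were called, against 2 with precision weights, 1 with these over at least 60 reads, and 0 on leaving out each library. For Treat_MII against WT_FGO 1 member was called, against 2 at a mean of at least 5 FPKM, 2 on centring, 2 with quantile normalization, 2 with at least 60 reads, 4 with precision weights in either gene set, 0 with only the compared groups, 0 without the trend, and 0 to 2 on leaving out each library. Members over 2-fold in that comparison numbered 5, and 3 to 6 on leaving out each library.

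Over all genes, 1023 were called in maturation, against 536 without a filter, 0 with only the compared groups, 328 without the trend, 2378 with precision weights, and 0 to 1843 on leaving out each library. In treatment the count was 0, against 27 without a filter, 165 and 10 with precision weights (all genes and at least 60 reads), and 0 to 418 on leaving out each library. For Treat_MII against WT_FGO it was 585, against 32 with only the compared groups, 59 without the trend, 2834 with precision weights, 1146 with at least 60 reads, 1424 with both, and 140 to 1604 on leaving out each library. Centring moved the split from 555 higher and 468 lower to 758 and 305 in maturation, and from 433 and 152 to 594 and 65 in the last comparison. Precision weights over genes with at least 60 reads, the setting with 5 members called in maturation, called 1341 of 2706 genes there. Of the spindle and centriole lists, 15 genes were called in maturation, against 6 without a filter, 0 with only the compared groups, 2 without the trend, 29 with precision weights, and 0 to 16 on leaving out each library. In treatment the list count of 0 became 1 with precision weights and 0 to 1 on leaving out each library, and for Treat_MII against WT_FGO the 12 became 7, 0, 1 and 21 under the same settings, 20 with precision weights over at least 60 reads, and 3 to 14 on leaving out each library.

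Signs turned only for members whose change was small or poorly read. In treatment, centring gave -0.068 for Cep192, -0.016 for Pcnt, -0.063 for Cdk5rap2 and -0.10 for Nedd1. Quantile normalization gave -0.46 for Cdk5rap2, rescaling -0.024 for Cep192 and -0.056 for Nedd1, precision weights -0.00087 for Cep192, -0.084 for Cdk5rap2 and -0.066 for Nedd1, and these over at least 60 reads -0.070 for Nedd1. On leaving out each library, the treatment difference of Cep192 ranged from -0.21 to 0.30, that of Pcnt from -0.15 to 0.34, that of Cdk5rap2 from -0.56 to 0.67 and that of Nedd1 from -0.50 to 0.53. In Treat_MII against WT_FGO, Cltc was 0.11 and Tubg1 0.26 on centring, and Tubg1 was 0.53 with quantile normalization and -0.63 to 0.46 on leaving out each library. Tacc3 and Aspm kept their direction in maturation and treatment in all 18 alternatives, with maturation changes of -4.71 to -4.13 and -2.25 to -1.59 and treatment differences of 1.64 to 1.84 and 1.35 to 1.75. In all, 463 of 525 member values kept their direction and their side of the threshold. The cause of these shifts was not tested. WT_FGO was the shallowest group, at 10.6 and 9.32 FPKM for 1 read in 1 kb, so Tubg1 and Cdk5rap2 could not be followed there beyond counting error.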
